A study of Mus musculus with 3 samples.

Results

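The genes described here are 10 enzymes that detoxify peroxides, superoxide and electrophiles, most of them with glutathione: *Mgst3*, *Mgst1*, *Gstm1*, *Gstm5*, *Gstp1*, *Gpx1*, *Gpx4*, *Prdx1*, *Prdx2* and *Sod1*. They were chosen by symbol, as 10 of the 14933 genes in the table of filtered cells, with their levels in these libraries already known, and all 10 were also among the 7174 genes of the neuronal table. Because measured values chose them, their levels and their differences between libraries and cell classes are given as a description, with no test.

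Glutathione is the main small thiol of the cell. Glutathione transferases couple it to electrophiles, glutathione peroxidases use it to reduce peroxides, peroxiredoxins reduce peroxides through thioredoxin, and superoxide dismutase makes the hydrogen peroxide that these enzymes remove. In the brain, astrocytes are known to keep high glutathione and to supply its precursors to neurons, and neurons are known to depend on *Gpx4* to keep their membrane lipids from peroxidation.

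The cells were tdTomato+ cells sorted from the medial prefrontal cortex (mPFC) of C57Bl6 mice at postnatal day 5 and read by droplet scRNA-seq, in which each captured molecule is counted once near its 3′ end as a unique molecular identifier (UMI). There was 1 library per genotype: wild-type (Rbp4cre::tdTomato), heterozygous (Tbr1f/+::Rbp4cre::tdTomato) and homozygous (Tbr1f/f::Rbp4cre::tdTomato). All 3 carried the *Rbp4-cre* driver and the Cre-dependent tdTomato reporter, so the wild-type cells differed in lacking the floxed allele of *Tbr1*, a T-box transcription factor of deep-layer cortical neurons. *Rbp4-cre* acts in layer 5 pyramidal neurons around birth, the number of animals behind each library was not given in the sources used here, and with 1 library per genotype no spread between animals can be had, so every interval below covers counting error only.

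The authors' lists split the 17396 filtered cells into typical neuronal cells (1778 wild-type, 5357 heterozygous and 3935 homozygous), atypical neuronal cells (304, 107 and 462) and other cells outside the neuronal table (2873, 1398 and 1182). The typical cells held 3670646, 10418228 and 6074494 UMIs, with medians of 1901, 1743 and 1375 UMIs per cell and median mitochondrial shares of 10.4%, 15.4% and 12.5%. Of 17255 barcodes, 139 occurred in 2 libraries and 1 in all 3. *Tbr1* was at 27.5, 30.7 and 22.4 UMIs per 1000000 UMIs of the class (CPM) in typical cells of the wild-type, heterozygous and homozygous libraries, but 3′ tags do not read the deleted exons, so this does not check the genotype. Summed CPM of 5 excitatory neuron markers was 1998, 2421 and 3078 in typical cells. It was 571 and 1176 in the atypical cells of the wild-type and homozygous libraries but 2414 in those of the heterozygous library. There 4 of the 5 markers were above 0. In typical cells *Nrgn* alone was at 1692, 2062 and 2722 CPM, so the sum says little of the other markers. The authors chose the neuronal clusters by *Nrgn*, *Rorb* and *Cnih2*, and set atypical cells apart for lower *Neurod6* and *Nrgn*. *Neurod6* and *Nrgn* are in the sum, so its difference between typical and atypical cells was partly fixed by how these classes were made. Markers of other cells were also counted in typical cells. Summed CPM of the 6 astrocyte or radial glia markers, mostly *Fabp7*, was 6707, 5847 and 6700 in typical cells, 5199, 5247 and 5103 in other cells and 6584, 6197 and 6828 in empty droplets. Of these markers only *Fabp7* and *Aldoc* were higher in typical than in other cells. *Slc1a3*, *Aqp4*, *Gja1* and *Slc1a2* were lower in typical cells in all 3 libraries, such as *Slc1a3* at 147, 116 and 127 CPM against 648, 334 and 472 CPM. The oligodendrocyte lineage markers stood at 97.9%, 89.1% and 83.6% of their empty-droplet level. The lists of the other non-neuronal types were below their empty-droplet level, such as the 5 blood genes, which summed to 345, 44.6 and 85.8 CPM, against 889, 307 and 422 CPM in empty droplets, taken as barcodes from 100 up to but not including 500 UMIs.

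The deposited counts hold free RNA together with RNA of the cell, for all 10 genes. Levels are molecules counted at the 3′ end, not divided by gene length, so they are compared between cells and not between genes. Together the 10 genes made up 4550, 4542 and 4695 CPM in typical cells of the wild-type, heterozygous and homozygous libraries, and 4507, 4521 and 4695 CPM in the empty droplets of the same libraries. Values of the empty droplets are therefore given beside those of the 10 genes, but not for the other genes of the pathway. The part of free RNA in the differences was not tested.

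The microsomal glutathione transferases *Mgst3* (chr1:167371966-167393841, minus strand, GRCm38) and *Mgst1* (chr6:138140316-138156755, plus strand) are membrane enzymes with transferase and peroxidase activity. *Mgst3* was at 742 CPM in typical cells of the wild-type library, 944 CPM in the heterozygous and 974 CPM in the homozygous one, from 2724, 9837 and 5919 UMIs. Both mutant libraries stood above the wild-type, whose interval (715 to 771 CPM) did not reach that of the heterozygous library (926 to 963 CPM). Against wild-type, the heterozygous library was at a log2 ratio of 0.35 (95% interval 0.29 to 0.41) and the homozygous one at 0.39 (0.33 to 0.46), and the 2 mutant libraries differed by 0.05 (-0.00 to 0.09). Empty droplets showed the same order, at 638, 815 and 869 CPM, with log2 ratios over wild-type of 0.35 and 0.45. *Mgst1* did not follow *Mgst3*. It was at 51.8, 48.3 and 50.2 CPM in the wild-type, heterozygous and homozygous libraries, and its intervals over wild-type, -0.34 to 0.15 and -0.31 to 0.23 on the log2 scale, left differences of this size undetectable at this depth. In empty droplets it was at 46.7, 52.1 and 58.9 CPM.

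The soluble glutathione transferases were *Gstm1* (chr3:108012255-108017973, minus strand) and *Gstm5* (chr3:107895821-107898686, plus strand), both in the mu-class cluster, and *Gstp1* (chr19:4035407-4037985, minus strand) of the pi class. *Gstm1* was at 240, 237 and 244 CPM in the wild-type, heterozygous and homozygous libraries. Its log2 ratios over wild-type were -0.01 (-0.12 to 0.10) and 0.03 (-0.10 to 0.15). *Gstm5* was at 331, 361 and 344 CPM in the same order, 0.12 (0.03 to 0.22) and 0.06 (-0.05 to 0.16) above wild-type on the log2 scale. In empty droplets *Gstm1* was at 249, 255 and 277 CPM, with ratios of 0.03 and 0.15, and *Gstm5* at 341, 376 and 356 CPM, with 0.14 and 0.06. Neither mu-class gene passed the fold used below in typical cells, and *Gstp1* was lower in both mutant libraries. It was at 104, 84.3 and 87.4 CPM, at log2 ratios to wild-type of -0.30 (-0.48 to -0.13) and -0.25 (-0.44 to -0.06), and it was at 96.3, 84.4 and 75.9 CPM in empty droplets. Reads of *Gstp1* and of the mu-class genes can be split or lost between near-identical family members, so their levels are uncertain.

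*Gpx1* (chr9:108338903-108340343, plus strand) reduces soluble peroxides, and *Gpx4* (chr10:80047166-80056439, plus strand) reduces lipid hydroperoxides within membranes. *Gpx1* was at 235, 189 and 204 CPM in typical cells of the wild-type, heterozygous and homozygous libraries. Against wild-type its log2 ratios were -0.31 (-0.43 to -0.20) and -0.20 (-0.33 to -0.07), and they were -0.10 and -0.08 in empty droplets. *Gpx4* was at 1098, 990 and 958 CPM in the same order. It was lower by a small margin in both mutant libraries, at log2 ratios of -0.15 (-0.20 to -0.10) and -0.20 (-0.26 to -0.14), close to the -0.15 and -0.14 of the empty droplets.

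The cytosolic peroxiredoxins moved apart. *Prdx1* (chr4:116685544-116700822, plus strand) was at 817, 878 and 981 CPM in the wild-type, heterozygous and homozygous libraries, and *Prdx2* (chr8:84969587-84974834, plus strand), its close relative and the peroxiredoxin known as abundant in neurons, was at 710, 592 and 652 CPM. *Prdx1* was thus highest in the homozygous library, with log2 ratios over wild-type of 0.10 (0.04 to 0.16) and 0.27 (0.20 to 0.33), and *Prdx2* was lowest in the heterozygous library, with -0.26 (-0.33 to -0.20) and -0.12 (-0.20 to -0.05). In empty droplets the ratios were 0.15 and 0.20 for *Prdx1* and -0.32 and -0.14 for *Prdx2*. *Sod1* (chr16:90220754-90226329, plus strand), the cytosolic superoxide dismutase, was at 223, 219 and 201 CPM. The homozygous library was lower than the wild-type, at -0.15 (-0.28 to -0.02), and than the heterozygous, at -0.12 (-0.23 to -0.02), while the heterozygous interval over wild-type (-0.14 to 0.09) included 0. In empty droplets its ratios over wild-type were -0.17 and -0.21.

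**Figure D1:**
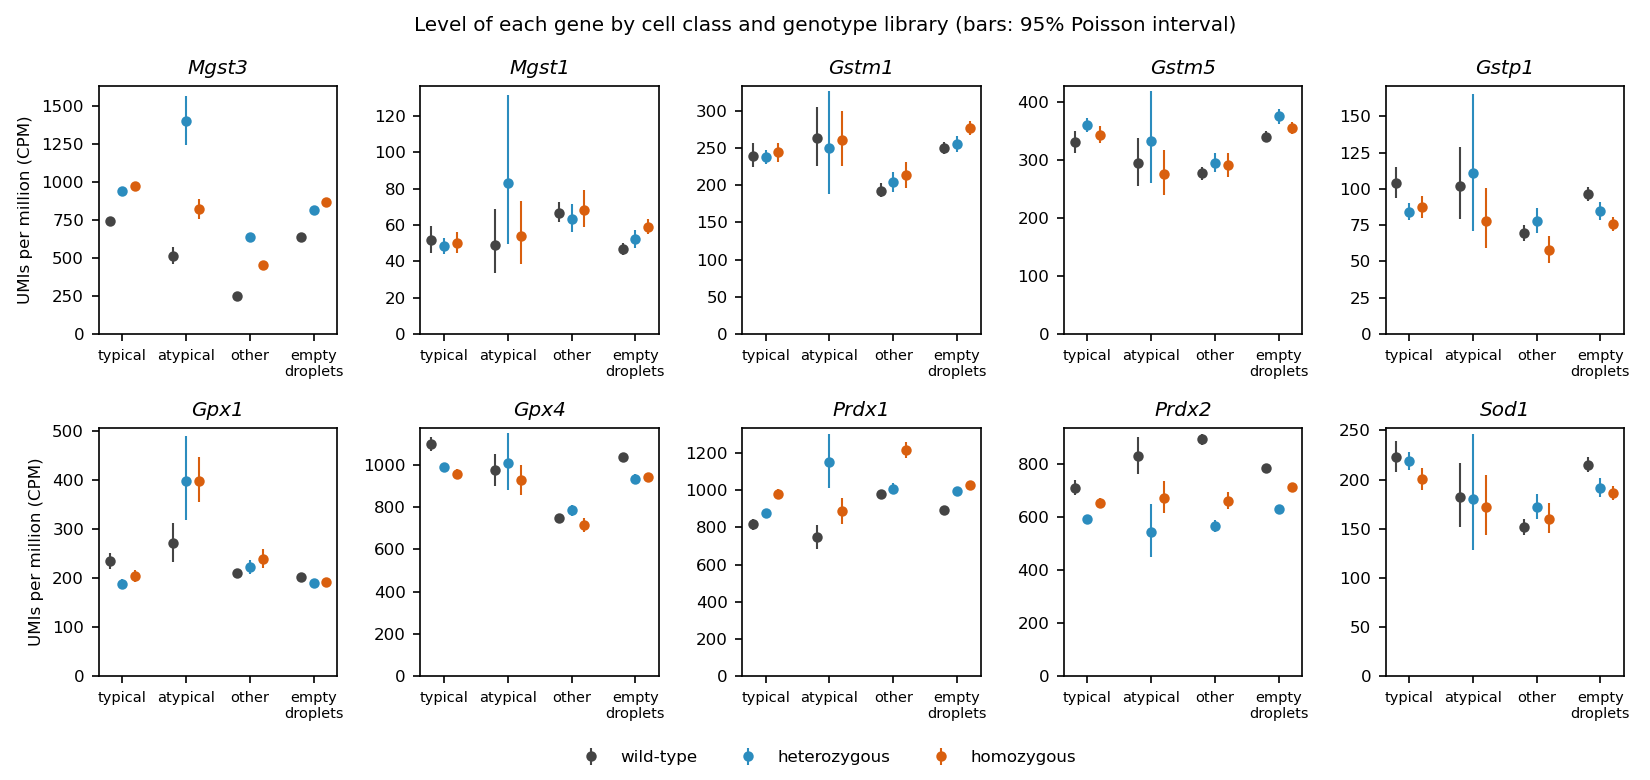
Level of each of the 10 genes (y axis, CPM, starting at 0) in typical, atypical and other filtered cells and in empty droplets, with 1 point per genotype library and bars for the 95% Poisson interval of the UMI count. *Mgst3* in wild-type cells was at 742 CPM in typical, 515 CPM in atypical and 249 CPM in other cells, and at 638 CPM in empty droplets.

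Read against all genes, few of the 10 stood out between genotypes. A gene was called past a log2 ratio of 0.32 in either direction, among the 4261 genes whose mean reached 20 CPM, which all 10 did. *Mgst3* was the 1 gene of 10 called higher in the heterozygous library, against 17.1% of all genes, and the 1 called higher in the homozygous library, against 17.2%, with 11.7% of all genes higher in both. None of the 10 was called lower in either, against 9.50% and 8.50% of all genes and 5.68% lower in both. None was called between the mutant libraries, where 4.04% of genes were higher and 2.68% lower in the homozygous than in the heterozygous library. The median log2 ratios of the 10 over wild-type were -0.06 (heterozygous) and -0.08 (homozygous), beside 0.06 and 0.08 for all genes. Both comparisons use the same wild-type library. *Gstp1*, *Gpx1*, *Gpx4* and *Prdx2* stayed below wild-type in both mutant libraries under all 12 other ways of computing the level. *Mgst3* and *Prdx1* stayed above it under all 12 in the heterozygous library and under 11 in the homozygous library, the exception being mean raw UMIs per cell, -0.026 for *Mgst3* and -0.16 for *Prdx1*, where the median of all genes was at -0.34. The blood genes set the share of free RNA in typical cells at 38.8%, 14.5% and 20.3% in the wild-type, heterozygous and homozygous libraries. It was thus largest in the wild-type library, against which both mutant libraries were compared. With the empty-droplet profile subtracted at these shares, *Mgst3* fell under the fold in both mutant libraries (0.26 and 0.31). *Prdx1* then passed the fold in the homozygous library (0.34). Of the genes called in the heterozygous library, 64.3% were higher than wild-type, against 40.7% by mean raw UMIs per cell, 53.4% after the subtraction set by the blood genes and 79.2% in cells with a mitochondrial share of 10 to 15 percent. In the homozygous library 66.9% were higher, against 50.1% with UMIs of the neuronal table as denominator, 54.2% with nuclear non-ribosomal UMIs as denominator and 1.89% by mean raw UMIs per cell. Between the mutant libraries 60.1% of calls were higher in the homozygous one, and from 1.03% to 47.7% under those denominators, mean raw UMIs and the mitochondrial range.

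**Figure D2:**
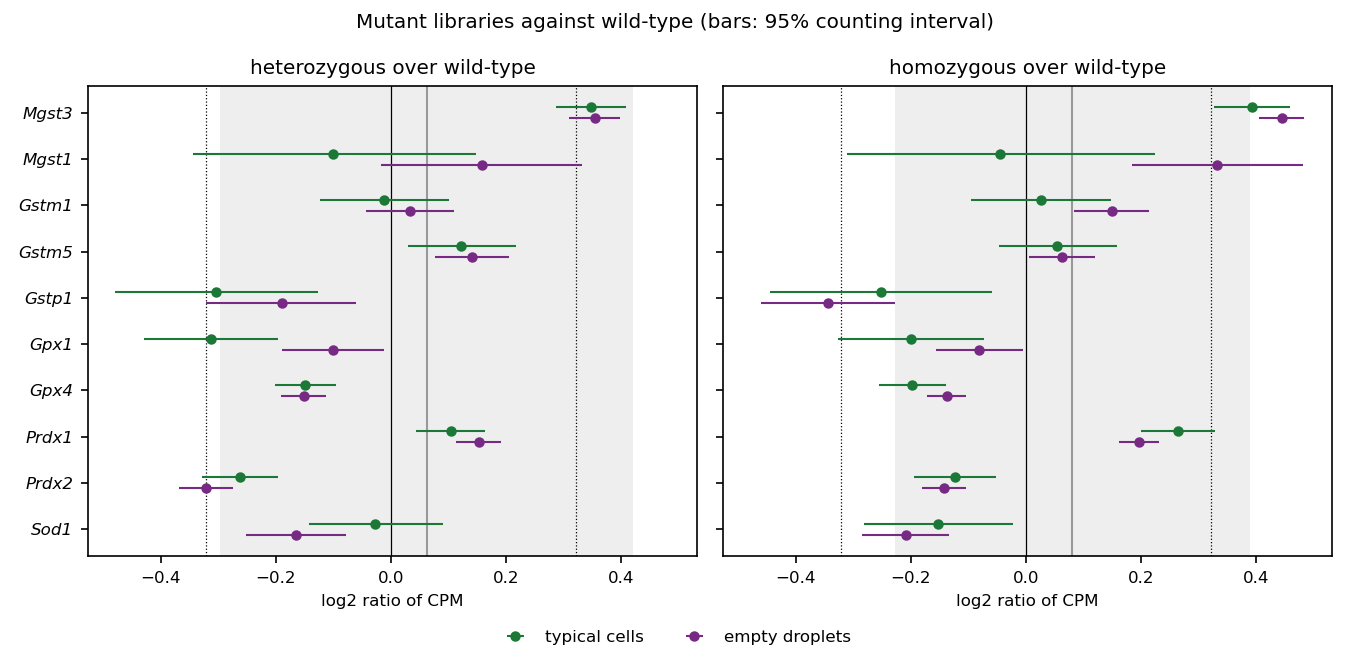
Log2 ratio of CPM over wild-type (x axis) for the 10 genes in typical cells and in empty droplets, heterozygous library left and homozygous library right. Bars are 95% counting intervals, dotted lines mark 0.32 on each side of 0, the grey line is the median of all 4261 genes and the grey band 1 SD of those genes on each side. *Mgst3* alone lay past the dotted line in typical cells, at 0.35 and 0.39 (-0.026 in the homozygous library by mean raw UMIs per cell), and in the empty droplets it was at 0.35 and 0.45.

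The share of cells with a UMI gave the same order for *Mgst3*. After thinning each cell to 1000 UMIs, 52.0% (49.7 to 54.4), 60.4% (59.1 to 61.8) and 61.4% (59.9 to 63.0) of typical cells of the wild-type, heterozygous and homozygous libraries held at least 1 UMI, and no cell fell below 1000 UMIs. Without thinning, the shares were 75.5%, 80.4% and 74.4%. No cell type here is known to lack *Mgst3*. The lowest thinned share in the wild-type library was 14.4% in cycling-like cells, whose median depth was 3608 UMIs against 1901 UMIs in typical cells. *Mgst1* was at 4.78%, 4.76% and 4.88% of thinned typical cells, against 1.39% (0.0352 to 7.50), 1.96% and 2.70% of the few microglia-like cells, 72, 51 and 37. By CPM, typical cells of the wild-type library (44.7 to 59.7) did not overlap inhibitory neuron-like cells (11.1 to 25.7) or microglia-like cells (4.62 to 43.4), but in the heterozygous library typical cells (44.2 to 52.7) overlapped both (18.8 to 53.4 and 1.60 to 47.6), and in the homozygous library (44.7 to 56.2) they overlapped microglia-like cells (2.67 to 79.5).

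Of the 10 genes, *Gpx1* had the widest gap between atypical and typical cells in both mutant libraries. *Gpx1* was at 271, 398 and 399 CPM in atypical cells of the wild-type, heterozygous and homozygous libraries, against 235, 189 and 204 CPM in typical cells. The log2 ratio was 0.21 (-0.03 to 0.44), 1.08 (0.75 to 1.39) and 0.97 (0.78 to 1.15), so the gene was about at 2.11-fold and 1.95-fold in the atypical cells of the mutant libraries, while the wild-type interval included 0. *Mgst3* pointed in different directions, at 515, 1401 and 823 CPM in atypical cells of the 3 libraries, with log2 ratios over typical cells of -0.53, 0.57 and -0.24. None of the 10 genes was called in the same direction in all 3 libraries, against 3.96% of 4271 genes higher and 7.89% lower in atypical cells. Microglia markers, a cell type with high *Gpx1* (see the levels by cell type), summed to 66.6, 50.9 and 28.2 CPM in atypical cells and 34.9, 17.8 and 20.3 CPM in typical cells, with all 6 above 0 in each. Blood genes summed to 345, 60.1 and 997 CPM in atypical cells, with 4 of 5 above 0. The part of either in the *Gpx1* level was not tested.

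The other filtered cells were a mixture, and their mixture differed between libraries. Over the 5183 genes compared, 36.0% were higher and 7.10% lower past the same fold than in typical cells in all 3 libraries. Among the 10 genes, *Mgst1* was higher in all 3, with log2 ratios of 0.37, 0.39 and 0.45, and 3 were lower. *Mgst3* was at 249, 637 and 454 CPM in other cells of the wild-type, heterozygous and homozygous libraries, a log2 ratio to typical cells of -1.58, -0.57 and -1.10. *Gpx4* was at -0.55, -0.34 and -0.42, and *Sod1* at -0.56, -0.34 and -0.33. Thinned to 1000 UMIs per cell, *Mgst1* was no longer past the fold in the heterozygous library (0.31), nor were *Gpx4* and *Sod1* there (-0.29 each) or *Sod1* in the homozygous library (-0.17), which left *Mgst3* as the 1 gene lower in all 3.

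To describe the levels by cell type, the 5453 other cells were clustered without the 10 genes and without the other genes of their pathway, giving 28 clusters, of which those with 3 or more markers of a fixed list were called "-like". Unnamed clusters held 18.8%, 38.6% and 34.1% of the other cells of the wild-type, heterozygous and homozygous libraries. Levels below are the mean over libraries with at least 20 cells of a type, with the lowest and highest library. Rankings are among typical cells, atypical cells and the named types, and leave out the unnamed clusters.

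*Mgst3* was highest in typical, atypical and excitatory neuron-like cells. Typical cells were at 887 CPM (742 to 974), atypical cells at 913 CPM (515 to 1401) and excitatory neuron-like cells at 718 CPM (507 to 908), ranges that overlapped. Inhibitory neuron-like cells followed at 384 CPM (296 to 446), below all 3, and mural-like, astrocyte or radial glia-like, meningeal fibroblast-like, microglia-like, endothelial-like, oligodendrocyte lineage-like and cycling-like cells lay between 345 and 193 CPM, with overlapping neighbors. The excitatory neuron-like class was uneven, with 916 CPM in its cluster 5 and 364 CPM in its cluster 13, against 365 CPM in the inhibitory neuron-like cluster 10. The place of microglia-like cells depended on the clustering, since at a resolution of 0.5 they were at 577 CPM (321 to 728), above inhibitory neuron-like cells at 384 CPM (298 to 444) on average, with overlapping ranges. There the class joined a cluster of 157 cells with all 6 microglia markers over 2-fold, at 239 CPM, and a cluster of 592 cells with 3 of them and 2 excitatory neuron markers over 2-fold, at 738 CPM. Of the named types, its relative *Mgst1* was highest in astrocyte or radial glia-like cells. They held it at 224 CPM (211 to 236), above meningeal fibroblast-like cells at 102 CPM (84.4 to 126), and inhibitory neuron-like and microglia-like cells were lowest among types seen in all 3 libraries, at 24.4 and 17.4 CPM.

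The unnamed cluster 15 held 109 cells and was led by *Dynlrb2*, *Tmem212* and *Ccdc153*. It was above the mean of astrocyte or radial glia-like cells in *Mgst1*, at 255 CPM, *Gstm1*, at 567 CPM, and *Gstm5*, at 464 CPM. Single clusters of named types were higher. The astrocyte or radial glia-like cluster 19 held *Mgst1* at 384 CPM and *Gstm1* at 808 CPM, against 196 and 385 CPM in cluster 2 of that type. The meningeal fibroblast-like cluster 17 held *Gstm5* at 617 CPM, against 243 CPM in cluster 18. *Gstm1* was at 444 CPM (440 to 452) in astrocyte or radial glia-like cells, at 240 CPM (237 to 244) in typical cells and at 224 CPM (194 to 251) in endothelial-like cells, the last pair overlapping. Among named types *Gstm5* was also highest in these cells, at 429 CPM (399 to 477), but meningeal fibroblast-like cells, at 413 CPM (389 to 447), did not differ beyond the spread, and typical cells held 345 CPM (331 to 361). *Gstp1* was low throughout, at 121 CPM (82.7 to 142) in meningeal fibroblast-like and 91.9 CPM (84.3 to 104) in typical cells, ranges that overlapped, and at 35.1 CPM in endothelial-like cells.

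Of the named types, microglia-like cells held the most *Gpx1*, at 579 CPM (530 to 660). This was above atypical cells at 356 CPM (271 to 399) and typical cells at 209 CPM (189 to 235). An unnamed cluster of 30 cells was higher, at 1189 CPM. Astrocyte or radial glia-like and cycling-like cells held the least, 96.3 and 95.3 CPM. *Gpx4* was highest in typical and atypical cells, with 1015 CPM (958 to 1098) in typical cells, 969 CPM (926 to 1008) in atypical cells and 941 CPM (825 to 1040) in meningeal fibroblast-like cells, all overlapping, with 805 CPM (599 to 910) in excitatory neuron-like, 647 CPM (585 to 702) in inhibitory neuron-like and 608 CPM (579 to 627) in microglia-like cells and 508 CPM (430 to 638) in cycling-like cells, the lowest type seen in all 3 libraries. *Sod1* was highest in endothelial-like cells at 245 CPM (226 to 267), just above typical cells at 214 CPM (201 to 223), and lowest in microglia-like cells at 81.0 CPM (65.8 to 89.0).

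The peroxiredoxins differed by cell type as well. *Prdx1* was above 1000 CPM on average in all 7 types seen in at least 2 libraries that were not named as neurons, from 1365 CPM (1171 to 1696) in endothelial-like to 1082 CPM (882 to 1282) in oligodendrocyte lineage-like cells, and at 892 CPM (817 to 981) in typical and 615 CPM (575 to 640) in inhibitory neuron-like cells. One of the 7, the cycling-like cells, came mostly from a cluster with 3 of 5 inhibitory neuron markers over 2-fold. *Prdx2* reached 1361 CPM (1271 to 1451) in oligodendrocyte lineage-like cells of the 2 libraries that had enough of them and 1237 CPM (1088 to 1419) in cycling-like cells, which overlapped. Inhibitory neuron-like cells were at 964 CPM (750 to 1290), and microglia-like cells at 375 CPM (341 to 441). By single clusters, the inhibitory neuron-like cluster 1 was at 1380 CPM, between the oligodendrocyte lineage-like clusters 9 and 20 at 1182 and 1500 CPM.

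**Figure D3:**
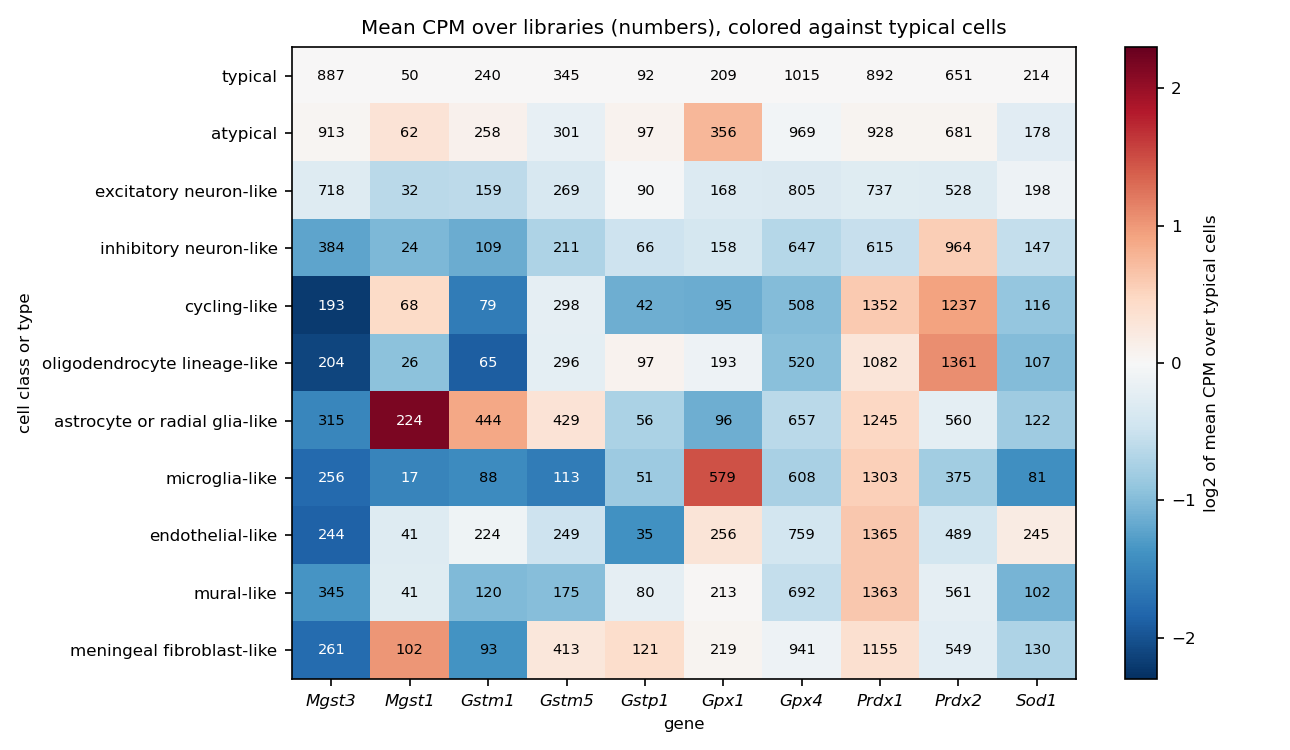
Mean CPM over libraries (numbers in the cells) of the 10 genes (columns) in typical and atypical neuronal cells and in the cell types named from markers (rows), for types seen in at least 2 libraries, with color for the log2 of each mean over that of typical cells. *Mgst1* stood out in astrocyte or radial glia-like cells at 224 CPM and *Gpx1* in microglia-like cells at 579 CPM. *Prdx2* was highest on average in oligodendrocyte lineage-like cells at 1361 CPM (1271 to 1451, 2 libraries), overlapping cycling-like cells at 1237 CPM (1088 to 1419).

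The genotype ratios were also computed within each named type, all of whose cells had passed the tdTomato sort. The types of a library share its preparation and free RNA, so counts of types below do not repeat the comparison of genotypes. *Mgst3* was above wild-type in 8 of 8 types of the heterozygous library, with the interval above 0 in 6, and in 8 of 9 types of the homozygous library, with the interval above 0 in 3. In astrocyte or radial glia-like cells it was at 238, 308 and 400 CPM, a log2 ratio of 0.37 (0.06 to 0.68) and 0.75 (0.46 to 1.03). In inhibitory neuron-like cells it was at 296, 446 and 410 CPM, with 0.59 (0.35 to 0.83) and 0.47 (0.21 to 0.73). The exception was oligodendrocyte lineage-like cells of the homozygous library, at -0.04 (-0.65 to 0.53). *Prdx1* was above wild-type in 9 of 9 types of the homozygous library, with the interval above 0 in 6, but in the heterozygous library it was above in 4 and below in 4 of 8. It reached 1606 CPM in microglia-like cells of the homozygous library, against 958 CPM in wild-type, and 1696 against 1229 CPM in endothelial-like cells.

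*Prdx2* was below wild-type in 8 of 8 types of the heterozygous and 8 of 9 of the homozygous library, with the interval below 0 in 3 of each. The widest gap of the heterozygous library was in inhibitory neuron-like cells, which held it at 1290, 750 and 853 CPM in wild-type, heterozygous and homozygous cells, log2 ratios to wild-type of -0.78 (-0.95 to -0.62) and -0.60 (-0.76 to -0.44). This class was made of different clusters in the libraries. Of its wild-type cells, 551 of 605 came from cluster 1, led by *Dlx6os1*, *Sp8* and *Tiam2*, against 79 of 155 heterozygous and 88 of 158 homozygous cells, and the rest came mostly from cluster 10, led by *Npy*, *Sst* and *Cort*. Within cluster 1 *Prdx2* was at 1407 CPM (1340 to 1476), 1193 CPM (1025 to 1382) and 1359 CPM (1169 to 1570), and within cluster 10 at 676 CPM (566 to 802), 539 CPM (461 to 627) and 634 CPM (543 to 736) in the wild-type, heterozygous and homozygous libraries. *Prdx2* was thus below wild-type in both mutant libraries in both clusters, with level intervals that overlapped the wild-type ones. No interval of the ratio is given within clusters. *Mgst3* was at 297, 402 and 505 CPM within cluster 1 and at 290, 405 and 374 CPM within cluster 10, above wild-type in both. In cluster 10 its homozygous interval (305 to 454 CPM) overlapped the wild-type one (220 to 376 CPM). The excitatory neuron-like cells were also a changing mixture, with 53 of 123 wild-type, 273 of 301 heterozygous and 40 of 80 homozygous cells from cluster 5, led by *Bhlhe22* and *Nrgn*, where *Mgst3* was at 710, 940 and 1014 CPM.

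*Gpx4* was below wild-type in 6 of 8 and 8 of 9 types, with the interval below 0 in 1 and 2. *Gstp1* was below it in 5 of 8 and 8 of 9, and *Gpx1* in 6 of 8 and 4 of 9. *Sod1* was below in 5 of 8 and 5 of 9, and none of these last genes had an interval excluding 0. *Gstm1* was above wild-type in 4 of 8 and 2 of 9 and *Gstm5* in 6 of 8 and 4 of 9. *Mgst1* was above in 6 of 8 and 7 of 9, and few intervals of these genes excluded 0. No share of all genes is given beside these counts. Levels in these smaller classes include the same free RNA, which was higher in the mutant libraries for *Mgst3* and *Prdx1* and lower for *Prdx2* and *Gpx4*.

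**Figure D4:**
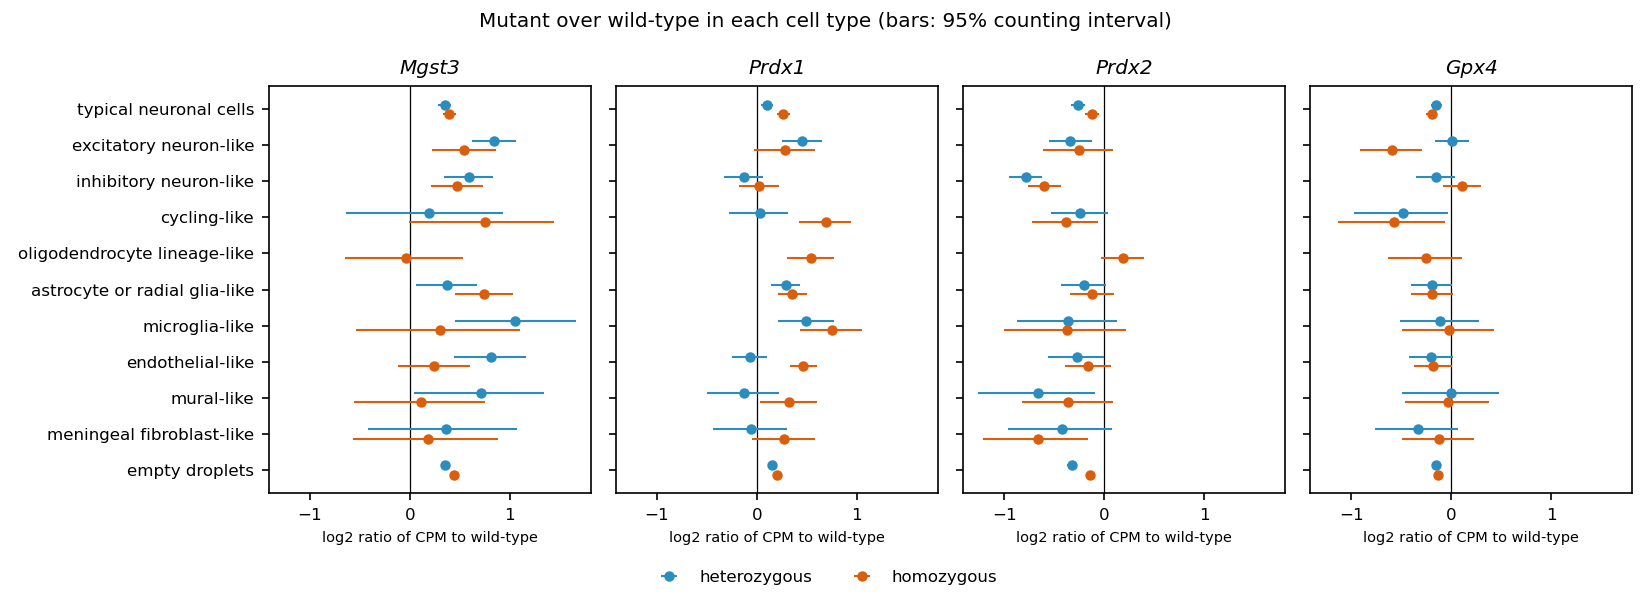
Log2 ratio of CPM over wild-type (x axis) of *Mgst3*, *Prdx1*, *Prdx2* and *Gpx4* in typical cells, in each cell type with at least 20 cells in both libraries, and in empty droplets, with bars for the 95% counting interval. *Mgst3* lay right of 0 in 8 of 8 heterozygous and 8 of 9 homozygous types, and *Prdx2* left of 0 in 8 of 8 and 8 of 9. The types of a library share its preparation and free RNA, so they do not repeat the comparison, and no share of all genes is given. By mean raw UMIs per cell *Mgst3* in homozygous typical cells was at -0.026 and *Prdx1* at -0.16.

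Within typical cells, layer markers did not separate most of these genes. Thinned cells with a UMI of a layer 5 list (*Fezf2*, *Bcl11b*, *Etv1*, *Ldb2*, *Crym*) and none of a layers 2 to 4 list (*Cux1*, *Cux2*, *Rorb*, *Lhx2*) numbered 350, 946 and 715 in the wild-type, heterozygous and homozygous libraries, and the reverse 210, 847 and 657. Most typical cells, 1128, 3347 and 2399, had a UMI of neither list. They are called layer 5 and layers 2 to 4 cells below by as little as 1 UMI, and their layer was not checked. A missing difference between these groups therefore does not show that the layers were alike. *Mgst3* was at 789 and 786 CPM in the layer 5 and layers 2 to 4 cells of the wild-type library, 941 and 891 CPM in the heterozygous and 966 and 968 CPM in the homozygous library, and no difference was detectable at this depth in any of them. The study, using in situ hybridization of tissue sections beside scRNA-seq, named *Mgst3* a layer 5 marker of prefrontal cortex. It also reported more *Mgst3* in upper layer 5 of homozygous mutants. Those sections were not examined here. *Gstm1* was at 317 against 191 CPM in the wild-type library, a log2 ratio of 0.74 (0.20 to 1.30), at 246 against 230 CPM in the heterozygous and at 290 against 234 CPM in the homozygous library, where the intervals included 0. *Prdx1* was lower in the layer 5 cells of both mutant libraries, at -0.17 (-0.31 to -0.03) and -0.21 (-0.36 to -0.05), and at -0.04 (-0.31 to 0.23) in the wild-type library.

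Of 66 listed genes of glutathione synthesis and recycling, transferases, peroxidases, peroxiredoxins and thioredoxins, dismutases, catalase and metallothioneins, 63 were in the table and 39 reached a mean of 20 CPM, 29 of them outside the 10. Of the 29, 2 were called higher and 2 lower in each mutant library, and 1 higher and 1 lower in both, against the shares of all genes given above (17.1% and 9.50% heterozygous, 17.2% and 8.50% homozygous, 11.7% and 5.68% in both). Their median log2 ratios over wild-type were 0.08 (heterozygous) and 0.02 (homozygous). *Mt2*, a metal-binding metallothionein, was lower in both, at 243, 147 and 193 CPM in the wild-type, heterozygous and homozygous libraries, at log2 ratios to wild-type of -0.72 (-0.84 to -0.60) and -0.33 (-0.46 to -0.20). *Gpx3*, the secreted peroxidase, was higher in both, at 26.2, 33.4 and 34.6 CPM, with 0.35 (0.02 to 0.69) and 0.40 (0.05 to 0.77). *Idh1*, a source of cytosolic NADPH, was at 145, 166 and 195 CPM, past the fold in the homozygous library alone (0.43, with 0.19 in the heterozygous). *Gpx8* was at 27.2, 21.9 and 20.7 CPM and *Gsta4*, a transferase for lipid aldehydes, at 26.2, 19.6 and 21.9 CPM, each past the fold in 1 mutant library. The remaining call was *Txnl1*, a thioredoxin-like protein, at 64.8, 82.6 and 70.6 CPM and higher in the heterozygous library (0.35). *Gclm* and *Gsr*, which serve the synthesis and the recycling of glutathione, were called in neither mutant library. Of the 24 listed genes under 20 CPM, *Gstt1*, a theta-class transferase, was higher past the fold in both mutant libraries with intervals above 0, at 5.72, 17.7 and 14.5 CPM from 21, 184 and 88 UMIs, log2 ratios of 1.63 (0.97 to 2.35) and 1.34 (0.64 to 2.10). *Gstm7* was lower in both, at 14.98, 10.3 and 10.2 CPM, with -0.55 (-1.03 to -0.05) and -0.55 (-1.10 to -0.00). No share of all genes under 20 CPM that meet this rule is given, and *Gstt1* and *Gstm7* were named after their values were seen.

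Across 33 points (each library by typical, atypical and each named type), the genes most like each of the 10 were picked by the Pearson correlation of log2(CPM + 1). *Mgst3* was most like *Cox6a1* (0.95) and *Cnih2* (0.94), *Mgst1* most like *Ptn* (0.83) and *F3* (0.82), *Gstm1* most like *Pea15a* (0.87) and *Lxn* (0.85), and *Gstm5* most like *Ddt* (0.82) and *Nkain4* (0.80). *Gpx1* was most like *Cd68* (0.75) and *C1qc* (0.75), *Gpx4* most like *Atp5j2* (0.84) and *Cox6c* (0.82), and *Prdx2* most like *Csnk2a1* (0.86) and *Sox4* (0.85). *Gstp1* was most like *Nenf* (0.80) and *Hspb11* (0.77), *Prdx1* most like *Krtcap2* (0.76) and *Mrps14* (0.76), and *Sod1* most like *Rpl38* (0.77) and *Tmsb10* (0.77). The genes were picked for these values, and the points of a library share its preparation and depth, so the values only describe likeness. *Cnih2* was among the markers by which the authors chose the neuronal clusters, and *C1qc* is in the list that named microglia-like cells. Their values were therefore partly built in.

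The promoters of the genes were searched for the core of the antioxidant response element, the motif bound by the stress-response factor Nrf2, because several of these enzymes are textbook targets of that factor. RefSeq (GRCm38.p6) gave 15 promoters for the 10 genes, each from 250 bases before to 50 after an annotated start. TGACNNNGC, on either strand, was found in 4 of these 15 promoters, 1 for each of 4 genes, and in 12.4% of 32851 promoters in all. The T-box motif AGGTGTGA was in none of the 15 and in 1.28% of all promoters. The 4 matches are shown on the strand of the gene with 16 bases on each side and the match in capitals, at chr6:138140455-138140495, chr3:107895796-107895836, chr4:116685450-116685490 and chr16:90220690-90220730. The matches start 56, 42, 133 and 56 bases before the RefSeq start of *Mgst1*, *Gstm5*, *Prdx1* and *Sod1*. These starts differ from the GENCODE gene bounds given above, from which the *Mgst1* match lies 155 bases inside the gene and the others 9, 78 and 48 bases before it, and the *Gstm5* match is on the gene strand while the others are on the opposite strand.
Mgst1: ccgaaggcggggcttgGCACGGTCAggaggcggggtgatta
Gstm5: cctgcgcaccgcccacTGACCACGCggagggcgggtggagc
Prdx1: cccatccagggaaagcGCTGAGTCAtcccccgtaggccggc
Sod1: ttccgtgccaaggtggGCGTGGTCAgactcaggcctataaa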

How the data were processed

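Per the study's methods, the authors aligned reads to mm10 and counted UMIs in Cell Ranger 2.0.1. They then filtered cells and genes, and log-normalized the counts in Seurat 2.3.4. The table of filtered cells holds raw counts, and the per-library matrices hold raw counts of every barcode. Mitochondrial shares were deposited as a fraction of a cell's UMIs. The neuronal table was deposited as the natural log of normalized UMIs and served only for its gene and cell lists, and a scaled table was not used.

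UMIs were summed per library and cell class and divided by the class total (CPM). Ratios carry exact conditional binomial (Clopper-Pearson) intervals at 95%, levels exact Poisson intervals, and shares of cells exact binomial intervals. All cover counting error only, and the ratio and its interval were tested on simulated counts with that error alone. The simulation held no variation between cells, so it cannot show how the intervals behave with it. Other cells were clustered with leidenalg 0.10.2 at resolution 1.0 (1500 variable genes, 30 components, 15 neighbors, no doublet removal), and a cluster was named from at least 3 markers at over 2-fold and 50 CPM. Clusters 14 and 15 passed this but were left unnamed because their leading genes, chosen after their values were seen, belonged to other cells (77, 19 and 19 cells of cluster 14 and 85, 11 and 13 of cluster 15 in the wild-type, heterozygous and homozygous libraries). The text names the 10 genes, the 5 other pathway genes of largest mean absolute log2 ratio among those at 20 CPM or more plus any called in both mutant libraries, and the 2 genes most like each of the 10. *Gclm*, *Gsr*, *Txnl1*, *Gstt1*, *Gstm7*, *Nrgn*, *Fabp7*, the other astrocyte or radial glia markers and the leading genes of clusters were named outside this rule, after their values were seen. Gene positions are from GENCODE. The genes, lists and tests were chosen with earlier results of these data known. Alternatives were TMM (edgeR 4.0.16) and DESeq2 1.42.0 factors, other denominators, thinning, other cell subsets and subtraction of the empty-droplet profile.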

Additional observations from a re-analysis of the deposited data

Results flagged for a closer look

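The difference between cell classes took opposite signs in different genotype libraries for 4 gene and class pairs, with counting intervals that excluded 0 on both sides. With 1 library per genotype these differences between libraries were not tested. In atypical over typical neuronal cells, *Mgst3* was at a log2 ratio of -0.53 in the wild-type, 0.57 in the heterozygous and, for the homozygous library, -0.24, where the heterozygous value rests on 107 atypical cells. The summed excitatory neuron markers of these cells were 571, 2414 and 1176 CPM, a sum that includes *Neurod6* and *Nrgn*, by which the authors set these cells apart. *Prdx1* in the same comparison was at 0.39 (heterozygous) and -0.15 (homozygous). In other filtered cells over typical cells, *Gpx1* was at -0.16 in the wild-type, 0.24 in the heterozygous and at 0.23 for the homozygous library, and *Prdx2* was at 0.33 in the wild-type and -0.069 in the heterozygous library, the latter turning to 0.086 after thinning each cell to 1000 UMIs, so that the opposite sign is lost. The other cells of the 3 libraries held different shares of each cell type, such as 298 cycling-like cells in the wild-type and 25 in the heterozygous library.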

How the results depend on the processing

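Of 360 values of the 10 genes between genotype libraries under other settings, 324 stayed within the counting interval of the reported value, 31 moved outside it and 5, whose reported interval excluded 0, changed sign. Another 15 sign changes were in values whose interval included 0 (*Gstm1*, *Gstm5*, *Gstp1*, *Mgst1*, *Mgst3* and *Sod1*). The 5 all came from mean raw UMIs per cell, which also counts how many UMIs a cell gave: *Mgst3* at -0.026 and *Prdx1* at -0.16 in the homozygous library over wild-type, and *Gpx1*, *Prdx1* and *Prdx2* at -0.22, -0.17 and -0.19 in the homozygous over the heterozygous library. Under that setting no gene of the 10 was higher past the fold in either mutant library (0 and 0, against 1 and 1), and 3, 8 and 3 were lower in the heterozygous over wild-type, the homozygous over wild-type and the homozygous over the heterozygous library, beside 15.2%, 52.4% and 49.7% of all genes. For the empty-droplet profile a smaller share was also used, 22.5%, 10.7% and 15.3% in the wild-type, heterozygous and homozygous libraries. Subtracting the profile, at either share, left 0 higher and 2 lower in the heterozygous library (*Gstp1* and *Gpx1*). Beside these, 14.9% and 11.9% of all genes were lower at the larger and the smaller share. The neuronal-table denominator gave the same 2 lower (469 of 4261 genes in all), and cells with a mitochondrial share of 10 to 15 percent gave 1 lower in each mutant library (*Gstp1*, beside 8.85% and 8.94% of all genes). At 1.5-fold 0 of the 10 were called higher in either. Edits to the filter or fold moved the share of all genes called. At 1.5-fold it was 3.59% higher and 2.39% lower in the heterozygous, 2.96% and 1.95% in the homozygous over wild-type, and 0.681% and 0.469% between the mutant libraries. With no filter it was 25.9% lower in the heterozygous and 24.6% lower in the homozygous library, and 18.2% higher and 14.7% lower between the mutant libraries. From 100 CPM it was 1.21% lower between the mutant libraries.

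Between classes, 151 of 180 values stayed, 28 moved and 1 changed sign, *Prdx2* in other over typical cells of the heterozygous library, at 0.086 after thinning. In other cells, 0 genes were higher and 1 lower in all libraries after thinning (33.6% and 8.14% of all genes), and 0 higher and 5 lower with nuclear non-ribosomal UMIs as denominator (29.2% and 13.1%). That denominator was added for the genotype comparison after seeing the data. At a clustering resolution of 0.5 all 10 genes kept their highest type, with *Gpx1* in microglia-like cells at 442 CPM, and *Mgst3* there was at 577 CPM against 256 CPM. For *Mgst3* (atypical cells) and *Gpx4* (typical cells) the highest class was not clustered, so its level could not move. The causes of these shifts were not tested. No library could be left out, and no paired analysis was possible because there was 1 library per genotype. Differences within counting intervals were not detectable at this depth.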

Other observations

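Levels in some clusters left without a name are given here, picked after their values were seen. A cluster of 30 cells led by *Cd74* and *H2-Aa*, genes of antigen presentation, held *Gpx1* at 1189 CPM, and a cluster of 115 cells led by *Pf4* and *Ccl7* held it at 564 CPM, beside 530 to 660 CPM in microglia-like cells. A cluster of 34 cells led by *Eomes*, a marker of cortical intermediate progenitors, held *Prdx2* at 1389 CPM, within the range of oligodendrocyte lineage-like cells. A cluster of 594 cells led by *Crybb1* and *Aif1*, genes of microglia, had 2 of 5 excitatory neuron markers and 1 of 6 microglia markers over 2-fold, and held *Mgst3* at 737 CPM and *Gpx1* at 379 CPM.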
